A study of Mus musculus with 7 samples.

Results

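The genes described here are 52 ligands, receptors and modulators of the WNT pathway, a list chosen by symbol, out of 17178 named genes on the arrays. Array probes were matched to the symbols through their RefSeq transcripts, and the brightest probe stood for a gene with several. A probe was found for 51 of the 52, and Lrp6 is not analysed here. Of the 51, 45 were bright enough to be tested, out of 13375 genes tested in all.

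The study measured messenger RNA in the subpallium, that is the ganglionic eminences and the septum, dissected from female CD-1 mouse embryos at E12.5. The 3 Otx2 cKO embryos carried a floxed allele of the homeobox gene Otx2 that was recombined by RxCre, a Cre line active across the forebrain but not in its caudal dorsomedial part, where the cortical hem and choroid plexus form. The 4 control embryos are labelled only as control, and the sources used here do not say whether they carried the floxed allele or the Cre. Each array held the RNA of 1 embryo, and the arrays lay on 2 slides: slide 2 with cKO replicates 2 and 3 and control replicates 3 and 4, slide 1 with cKO replicate 1 and control replicates 1 and 2. By the litter labels, cKO replicates 1 and 3 and control replicates 2 and 3 came from litter 2, and each of the other embryos came from a litter of its own.

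WNT proteins are lipid-modified secreted signals that bind Frizzled receptors together with LRP5 or LRP6. In the canonical branch this stabilises beta-catenin, encoded by Ctnnb1, which then acts with TCF and LEF factors on target genes such as Axin2. In the embryonic forebrain the cortical hem is a known source of WNT ligands, WNT signalling favours dorsal over ventral fate, and WNT7A and WNT7B from neural progenitors act on the growing brain vessels.

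Values are log2 signals relative to the 75th percentile of the same array, so 0 is the brightness of that percentile and a step of 1 is 2-fold. They compare arrays for 1 gene and not the levels of different genes. Differences are cKO minus control, with limma's moderated standard error (SE), and a gene was called when its p, adjusted over all 13375 genes, was under 0.05. The 10 subpallial genes on the list, among them Dlx1, Dlx2, Gad1 and Nkx2-1, were well above background on all 7 arrays. So were 5 of 8 genes on the cortical hem list and 5 of the 10 choroid plexus genes with a probe, while the defining genes Lmx1a (hem) and Ttr (choroid plexus) were well above background on none. Between 68.4% and 72.2% of the spots of an array were well above background. The arrays are few, which limits the precision of every value, and fewer cells of a type cannot be told apart from less RNA per cell in dissected tissue.

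The probe of Otx2 itself ran against the labels. It read 1.73, 2.27 and 1.72 in cKO replicates 1 to 3, against 0.13, 0.48, 0.42 and 0.50 in control replicates 1 to 4. The difference was 1.52 ± 0.17 (SE, n = 3 and 4; limma, adjusted p = 0.0294), higher in the arrays labelled cKO. The call held in 10 of 24 alternatives, with differences of 1.28 to 1.62. The sources used here do not say whether this probe lies in the deleted part, and a probe outside it checks nothing. All directions below rest on the labels.

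No WNT pathway member was called in either direction. Of the 45 tested members limma called 0, beside 0.209% of all genes tested (28 genes, 12 higher and 16 lower in cKO arrays). At an unadjusted p under 0.05, 3 members were higher in cKO arrays, beside 4.34% of all genes, and 2 were lower, beside 6.78% (11.1% in either direction). The groups did not overlap in 4 members, beside 12.7% of all genes: 3 were higher in cKO arrays, beside 5.44%, and 1 was lower, beside 7.24%. The member differences ran from -1.93 for Rspo1 to 0.82 for Fzd5, with 28 positive and 17 negative. Their median was 0.060, beside 0.018 over all genes tested. The smallest adjusted p among the members was 0.366.

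**Figure D1:**
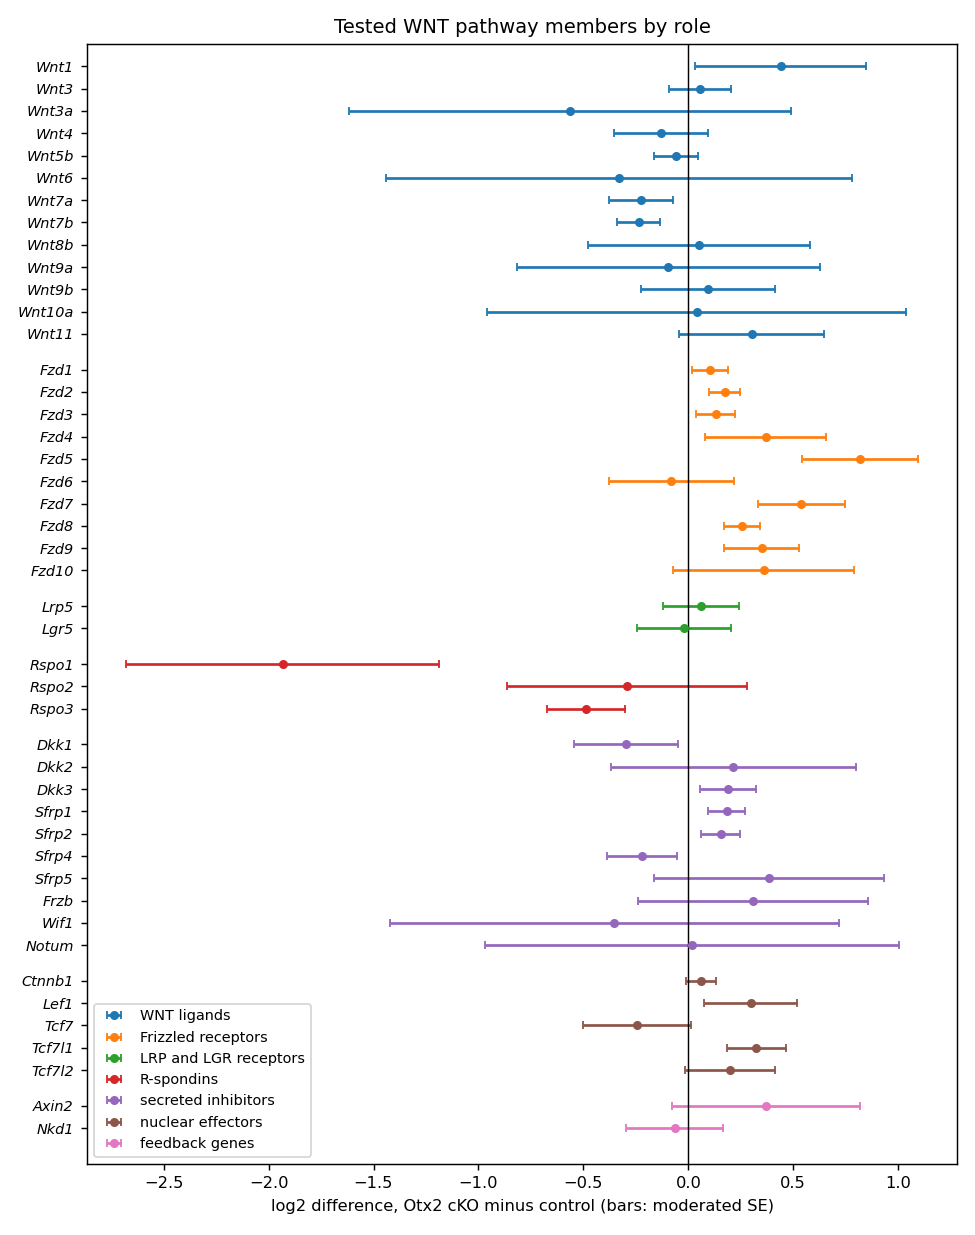
Log2 difference, Otx2 cKO minus control, of the 45 tested members grouped by role. Points are limma estimates from 3 cKO and 4 control arrays and bars are moderated standard errors; 9 of the 10 Frizzled points lie right of 0 and the 3 R-spondin points lie left of it, with 0 members called.

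The 18 WNT ligands split by how bright they were. The probes of Wnt2, Wnt2b, Wnt10b and Wnt16 were well above background on none of the 7 arrays. Wnt5a, a ligand best known for beta-catenin-independent signalling, was well above background on 1 of 3 cKO arrays and on 0 of 4 control arrays. It was therefore not tested. It read -6.97, -6.09 and -6.75 in cKO replicates 1 to 3, against -7.44, -7.49, -6.82 and -7.41 in control replicates 1 to 4, with overlapping groups. The 13 tested ligands had 6 positive and 7 negative differences and a median of -0.059, and 9 of the 18 were well above background on all 7 arrays.

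Wnt7b had the smallest p of the ligands. Its log2 signal was 1.14, 0.80 and 1.08 in cKO replicates 1 to 3, against 1.33, 1.18, 1.25 and 1.21 in control replicates 1 to 4. Every cKO array was below every control array, and the difference was -0.24 ± 0.10 (adjusted p = 0.461), a 1.18-fold difference. Its close relative Wnt7a read 1.29, 0.97 and 0.97 in cKO arrays, against 1.52, 1.48, 1.16 and 1.05 in control arrays. The Wnt7a groups overlapped, and the difference was -0.23 ± 0.15 (adjusted p = 0.628, 95% interval -0.59 to 0.13).

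The ligands of the dorsal midline were dim and uneven from embryo to embryo. Wnt3a, a hem ligand, was well above background on 1 of 3 cKO arrays and 3 of 4 control arrays, and Wnt8b on 1 of 3 and 2 of 4. Wnt3a was -4.68 in cKO replicate 2 and at the lower limit of -7.49 in cKO replicates 1 and 3, against -3.80, -7.49, -6.79 and -5.86 in control replicates 1 to 4. The groups spanned much the same range, and the difference of -0.57 ± 1.05 could not be told from 0 (95% interval -3.07 to 1.94). Wnt8b, also of the hem, differed by 0.052 ± 0.53. Wnt2b, a further hem ligand, was among the 4 not detected.

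With their brightest probes, the remaining tested ligands gave differences within their errors or close to them. Wnt5b differed by -0.059 ± 0.10 (95% interval -0.31 to 0.19) and Wnt3 by 0.055 ± 0.15 (-0.29 to 0.40). The second, dimmer Wnt5b probe gave 0.33, the other sign. It read -5.45, -5.31 and -5.64 in cKO arrays, against -5.89, -5.82, -5.81 and -5.71 in control arrays, with no overlap. The second Wnt3 probe gave 0.28. Wnt4 differed by -0.13 ± 0.22 and Wnt9b by 0.092 ± 0.32. Wnt1, a midbrain and dorsal neural tube ligand, differed by 0.44 ± 0.41, and Wnt11 by 0.30 ± 0.34. Wnt6, Wnt9a and Wnt10a had SEs of 1.11, 0.72 and 0.997, so changes of 2-fold in either direction fell inside their intervals. In Wnt10a this width came from the cKO arrays, which read -2.74, -5.08 and -7.49, against -5.05, -5.42, -5.40 and -4.69 in control arrays.

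The Frizzled receptors, the seven-pass receptors for WNT ligands, were well above background on all 7 arrays in 10 of 10 cases. Of the 10, 9 had a positive difference and Fzd6 a negative one, with a median of 0.30, beside 0.018 over all genes tested, where 7243 differences were positive and 6132 negative. None was called. The 3 members above with an unadjusted p under 0.05 and a higher cKO signal were all Frizzled receptors, Fzd5, Fzd8 and Fzd7. The array of cKO replicate 2 was the highest of the 7 in Fzd2, Fzd3, Fzd5, Fzd6, Fzd7, Fzd9 and Fzd10. It was not the highest in Fzd1, Fzd4 and Fzd8. In Fzd10 the other cKO arrays were below the control mean of -1.88. Without cKO replicate 2 the differences of Fzd5, Fzd8, Fzd7 and Fzd2 were 0.65, 0.31, 0.34 and 0.13.

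Fzd5, a receptor of the eye field and ventral forebrain, had the largest positive difference of the 45. Its log2 signal was -3.60, -3.29 and -4.03 in cKO replicates 1 to 3, against -5.08, -4.08, -4.28 and -4.39 in control replicates 1 to 4. Every cKO array was above every control array, though cKO replicate 3 cleared control replicate 2 by little. The difference was 0.82 ± 0.28, or 1.76-fold (adjusted p = 0.366, 95% interval 0.16 to 1.47). The second Fzd5 probe gave a smaller difference of 0.39. On that probe the groups overlapped by little, at -4.447 in cKO replicate 1 and -4.441 in control replicate 2. Within litter 2 the difference was 0.36, less than in the whole set, while it was 0.98 within slide 1 and 0.68 within slide 2.

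Fzd8, a forebrain progenitor receptor, read -0.64, -0.81 and -0.62 in cKO replicates 1 to 3. The control values were -1.01, -0.82, -0.995 and -0.95. The groups did not overlap, but cKO replicate 2 and control replicate 2 were nearly equal. The difference was 0.25 ± 0.086, or 1.19-fold (adjusted p = 0.369), and it was 0.28 within slide 1, 0.26 within slide 2 and 0.28 within litter 2.

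Fzd7 read -1.13, -0.23 and -0.53 in cKO arrays, against -1.25, -1.26, -1.15 and -1.02 in control arrays. The cKO arrays of slide 2 stood above all controls and cKO replicate 1, on slide 1, stood among them. The difference was 0.54 ± 0.21, or 1.45-fold (adjusted p = 0.413), with 0.13 within slide 1, 0.70 within slide 2 and 0.37 within litter 2. Its second, dimmer probe gave 0.25. Leaving out cKO replicate 1 raised the difference to 0.79 (adjusted p = 0.106), the smallest adjusted p that any member reached in any alternative.

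Fzd2 was 3.57, 3.72 and 3.64 in cKO arrays and 3.43, 3.49, 3.55 and 3.41 in control arrays. The groups did not overlap, and the difference was 0.17 ± 0.076 (adjusted p = 0.464). The second Fzd2 probe gave -0.14, the other sign. Of the other receptors, Fzd9 differed by 0.35 ± 0.18, Fzd4 by 0.37 ± 0.29, Fzd10 by 0.36 ± 0.43, Fzd3 by 0.13 ± 0.093, Fzd1 by 0.10 ± 0.084 and Fzd6 by -0.081 ± 0.30. The co-receptor Lrp5 differed by 0.060 ± 0.18, and Lgr5, a receptor for R-spondins, by -0.019 ± 0.22.

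**Figure D2:**
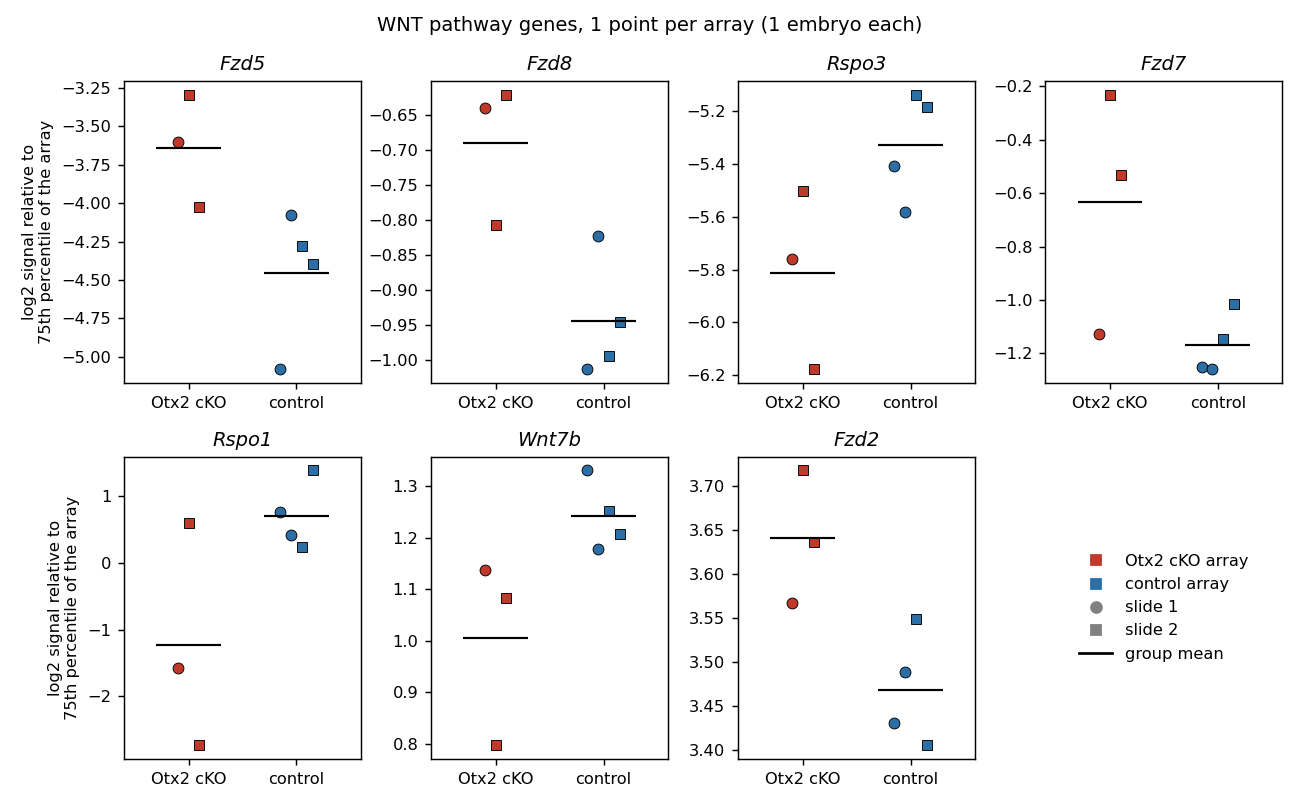
Log2 signal relative to the 75th percentile of the array for the 7 members with an unadjusted p under 0.05 or with groups that did not overlap, 1 point per array and a line at each group mean, with circles for slide 1 and squares for slide 2. Rspo1 shows 2 cKO arrays below all controls and cKO replicate 2 at 0.60, among them.

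The R-spondins, secreted proteins that raise WNT receptor levels at the cell surface by way of LGR receptors, gave the negative end of the range. Rspo1 read -1.58, 0.60 and -2.73 in cKO replicates 1 to 3, against 0.75, 0.41, 0.23 and 1.38 in control replicates 1 to 4. The arrays of cKO replicates 1 and 3 were below every control, and cKO replicate 2 was within the control range. The difference was -1.93 ± 0.75, or 3.82-fold (adjusted p = 0.417, 95% interval -3.70 to -0.16). It was -2.16 within slide 1, -1.87 within slide 2 and -2.48 within litter 2, which holds cKO replicates 1 and 3 but not 2. Without cKO replicate 2 it was -2.85 (adjusted p = 0.160), and without cKO replicate 3 it was -1.19 (adjusted p = 0.811).

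Rspo3 read -5.76, -5.50 and -6.18 in cKO arrays and -5.41, -5.58, -5.14 and -5.18 in control arrays. Only cKO replicate 2 overlapped the controls, again the highest cKO array. The difference was -0.49 ± 0.19, or 1.40-fold (adjusted p = 0.412), with -0.27 within slide 1, -0.68 within slide 2 and -0.61 within litter 2. Rspo2 differed by -0.29 ± 0.57. Rspo4 was well above background on 1 of 3 cKO arrays and 0 of 4 control arrays with its brighter probe, and on 0 of 3 and 1 of 4 with the other, and was not tested.

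The secreted inhibitors bind WNT ligands, as SFRP, FRZB and WIF1 do, cleave their lipid, as NOTUM does, or block LRP co-receptors, as DKK1 does. Of the 10, all tested, 7 had positive and 3 negative differences, and 6 were well above background on all 7 arrays. Sfrp1 read 5.09, 5.20 and 5.28 in cKO arrays, against 4.89, 4.99, 5.02 and 5.14 in control arrays. The groups overlapped at cKO replicate 1 and control replicate 4, and the difference was 0.18 ± 0.090 (adjusted p = 0.507). Sfrp2 differed by 0.15 ± 0.093, Dkk3 by 0.19 ± 0.13, Sfrp4 by -0.22 ± 0.17, Dkk1 by -0.30 ± 0.25 and Sfrp5 by 0.38 ± 0.55. Sfrp5 was dim, well above background on 2 of 3 cKO arrays and 1 of 4 control arrays. It was at the lower limit of -7.49 in cKO replicate 1 and control replicate 1. The second, dimmer Dkk1 probe, well above background on all 7 arrays, gave -0.26. On that probe every cKO array was below every control array, by little for control replicate 2 (-6.47, against -6.50 in cKO replicate 2).

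Frzb, Dkk2, Wif1 and Notum had a wider spread in the cKO group, with SDs of 1.22, 1.28, 2.24 and 2.09 in cKO arrays (n = 3) against 0.41, 0.48, 1.06 and 0.93 in control arrays (n = 4). Notum read -6.55, -3.46 and -7.44 in cKO replicates 1 to 3, against -5.76, -7.17, -5.08 and -5.32 in control replicates 1 to 4. Wif1 read -6.88, -2.98 and -6.83 in cKO arrays and -5.59, -6.16, -3.69 and -5.40 in control arrays. In both genes cKO replicate 2 was the highest of the 7 arrays, and the other cKO arrays were below at least 3 of the 4 controls. The differences were 0.017 ± 0.98 for Notum and -0.35 ± 1.07 for Wif1. Frzb and Dkk2 had differences of 0.31 ± 0.55 and 0.21 ± 0.58.

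Ctnnb1, which encodes beta-catenin, had the smallest SE of the tested members. It read 4.86, 4.90 and 4.89 in cKO arrays, against 4.85, 4.87, 4.85 and 4.72 in control arrays. The difference was 0.059 ± 0.071, with a 95% interval of -0.11 to 0.23. Tcf7l1, which acts mostly as a repressor without WNT signal, read 1.61, 1.94 and 2.09 in cKO arrays, against 1.34, 1.62, 1.64 and 1.62 in control arrays. Only cKO replicate 1 overlapped the controls, and the difference was 0.32 ± 0.14 (adjusted p = 0.461), while its second probe gave 0.065. Lef1 differed by 0.30 ± 0.22 and Tcf7 by -0.25 ± 0.26. Tcf7l2 differed by 0.20 ± 0.21 over 2 cKO arrays, because its spot on cKO replicate 2 was marked as an outlier and dropped, and its other probes gave 0.34 and -0.16.

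The feedback genes Axin2 and Nkd1 are induced by canonical signalling and dampen it. Axin2 read -3.86, -2.36 and -2.66 in cKO replicates 1 to 3, against -3.95, -3.72, -2.80 and -2.84 in control replicates 1 to 4. The low arrays are the 3 of slide 1 and the high arrays the 4 of slide 2, in both groups. The difference between groups was 0.37 ± 0.45 (adjusted p = 0.797). With slide as a block it was 0.18 ± 0.12 (adjusted p = 0.605), and it was -0.018 within slide 1 and 0.31 within slide 2. Nkd1 read 1.31, 1.90 and 1.03 in cKO arrays and 1.48, 1.12, 1.62 and 1.68 in control arrays, with overlapping groups and a difference of -0.065 ± 0.23.

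Axin2 was chosen here for its split by slide after its values were seen. In the fit with group and slide, slide 2 minus slide 1 was 1.15 ± 0.12 for Axin2 (adjusted p = 0.0398). It was the only tested member called for slide, 1 of 45, beside 0.344% of all genes tested (46 genes). The call was lost when any 1 array was left out (adjusted p 0.0631 to 0.230), with differences of 1.02 to 1.24. Within litter 2 the arrays split the same way, at -2.66 and -2.80 on slide 2 and -3.86 and -3.72 on slide 1. Slide arrays did not overlap in 8 of 45 members, 17.8%, beside 17.3% of all genes. Those were Axin2, Wnt1, Wnt11, Fzd3, Lrp5, Dkk2 and Sfrp5, higher on slide 2, and Wnt7a, lower there. What sets the slides apart was not tested.

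**Figure D3:**
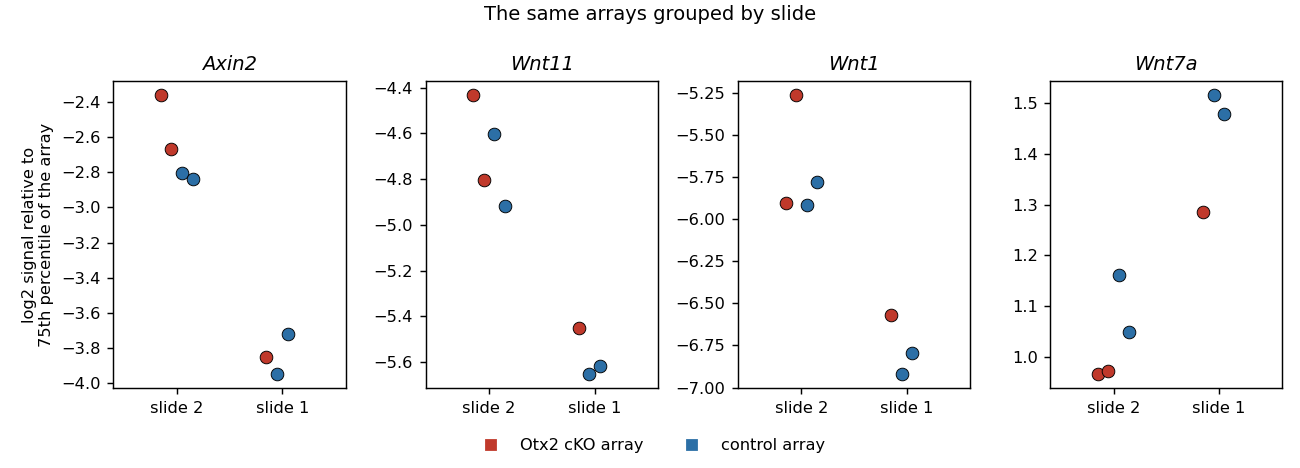
Log2 signal relative to the 75th percentile of the array for Axin2, Wnt11, Wnt1 and Wnt7a with the 7 arrays grouped by slide and coloured by genotype label, 1 point per array. Slide 2 lies above slide 1 with no overlap for Axin2, Wnt11 and Wnt1, and below it for Wnt7a.

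The array of cKO replicate 2 stood at the top for many members. Of the 39 tested members with a signal above the lower limit on every array, 23 were highest in cKO replicate 2, or 59.0%, beside 28.4% of all such genes. Markers of other tissues were high in the same embryo. The 13 tested genes of the meninges, mesenchyme and pericyte list with a kept value on every array, out of 16, summed to 49.6%, 214% and 55.4% of the control mean in cKO replicates 1 to 3, and to 121%, 49.6%, 103% and 126% in control replicates 1 to 4. The endothelial list summed to 79.1%, 137% and 70.1% in cKO arrays and to 104%, 75.6%, 109% and 111% in control arrays. The cortical hem list summed to 102%, 124% and 107% in cKO arrays and to 115%, 81.0%, 87.1% and 117% in control arrays. In the hem sum Dmrta2 weighed most, at 1.24, 1.26 and 1.22 in cKO arrays and 1.25, 0.92, 0.87 and 1.25 in control arrays. Bmp4, also on that list, read -6.27, -2.42 and -5.07 in cKO arrays and -3.31, -6.27, -3.70 and -3.18 in control arrays. The median log2 deviation of the hem genes from their control means was -0.39, 1.03 and 0.15 in cKO arrays. In control arrays it was 0.38, -0.39, 0.044 and 0.58. The choroid plexus list summed to 93.9%, 140% and 87.3% in cKO arrays and to 112%, 70.9%, 96.6% and 120% in control arrays. The microglia list ran from 72.5% to 150% in cKO arrays and from 73.1% to 114% in control arrays, and the erythroid list from 77.5% to 134% and from 79.96% to 126%. The subpallial list, over 8 genes, stayed within 94.0% to 106% in cKO arrays and 93.4% to 106% in control arrays. Of its 10 genes taken singly, 8 had a negative difference, down to -0.67, and the median was -0.062. The groups did not overlap in 4 of the 10, all lower in cKO arrays, beside 7.24% of all genes. In 2 of them the unadjusted p was under 0.05, both lower, beside 6.78% of all genes.

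On the lists of neighbouring brain regions the sums of the groups did not overlap, while single genes varied. The diencephalon, midbrain and hindbrain list summed to 130%, 179% and 175% of the control mean in cKO arrays. Its control arrays summed to 80.9%, 121%, 100% and 98.3%. The pallium list, over 4 genes, summed to 75.9%, 66.7% and 71.4% in cKO arrays and to 116%, 93.1%, 92.5% and 98.0% in control arrays. On the diencephalon, midbrain and hindbrain list 7 genes were tested, 5 with positive and 2 with negative differences and a median of 0.36. The groups did not overlap in 3 of the 7, all higher in cKO arrays, beside 5.44% of all genes. Lhx9, En2 and Irx1 had an unadjusted p under 0.05 and were higher, 3 of 7, beside 4.34% of all genes. These 3 differed by 0.60, 3.03 and 0.64, while Barhl2, Pou4f1 and En1 differed by -0.038, 0.033 and -0.065. On the pallium list 6 genes were tested, 1 with a positive and 5 with negative differences and a median of -0.092. The groups did not overlap in 2 of the 6, both lower in cKO arrays, beside 7.24% of all genes. Neurod2 and Neurod6 had an unadjusted p under 0.05 and were lower, 2 of 6, beside 6.78% of all genes. They differed by -0.80 and -0.76, while Tbr1, Eomes and Lhx2 differed by -0.020, -0.026 and 0.33. These examples were chosen after their values were seen. No gene of the 9 marker lists was called between the groups. The part of these markers in the members' values was not tested.

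Leaving out cKO replicate 2 moved the median of the tested members to -0.067, and leaving out cKO replicate 1 moved it to 0.20. At an unadjusted p under 0.05, 1 member was then higher and 5 lower in the first case, and 2 higher and 1 lower in the second, with 0 called in either. Over all genes the counts were 354 higher and 906 lower of 13250 without cKO replicate 2 (median -0.020), and 915 higher and 1011 lower of 13009 without cKO replicate 1 (median 0.055).

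**Figure D4:**
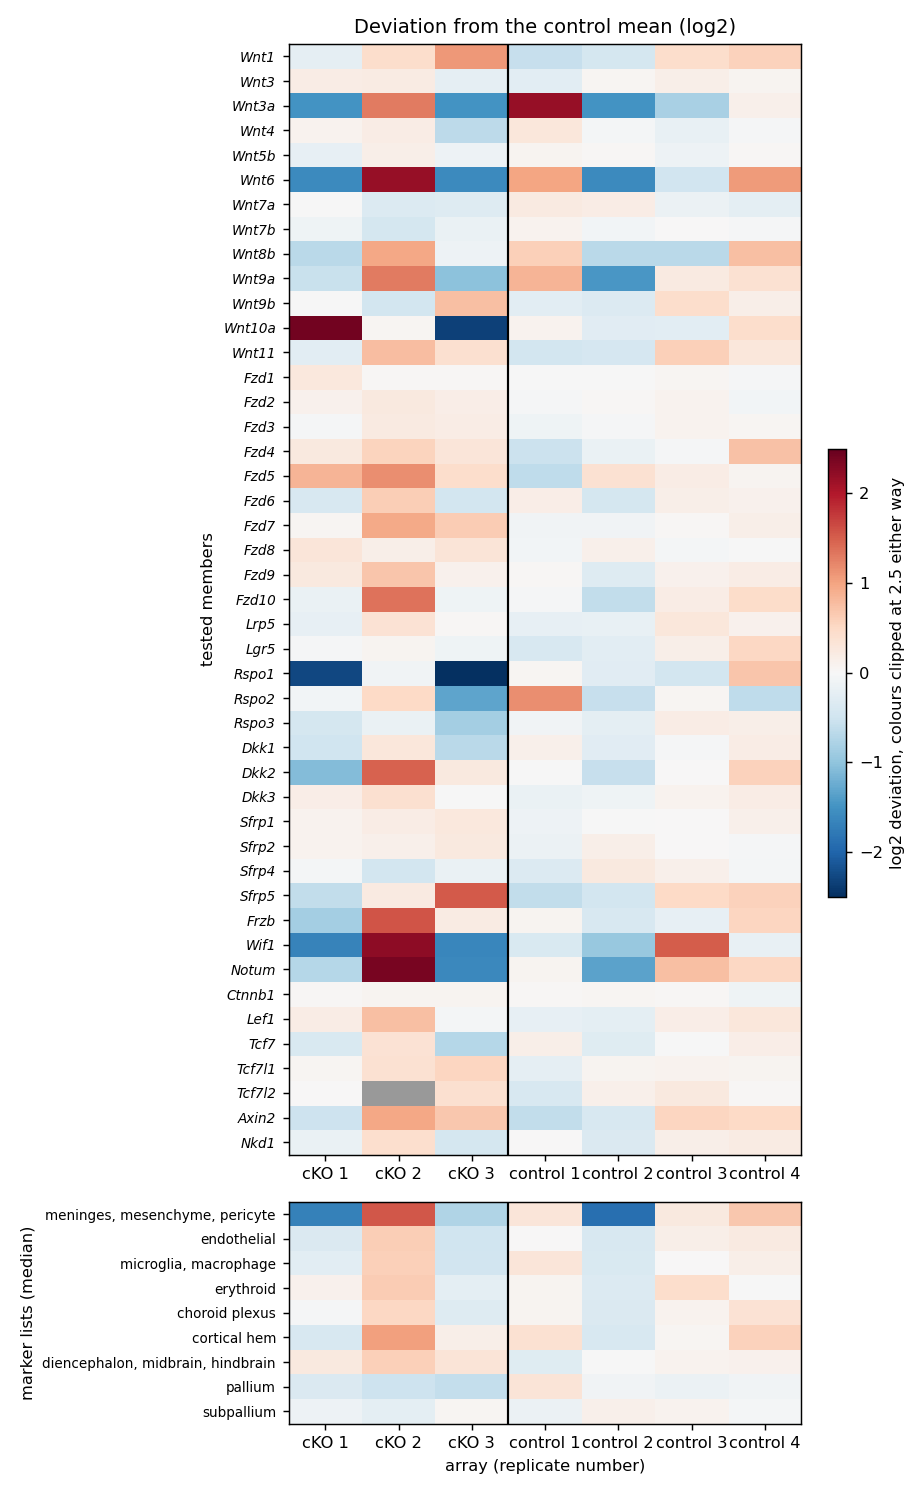
Log2 deviation of each array from the control mean for the 45 tested members (upper panel) and the median deviation of 9 marker lists (lower panel), with cKO arrays left of the line, control arrays right of it and a dropped value in grey. The column of cKO replicate 2 is the highest of the 7 in 23 of 39 members and in 7 of the 9 marker lists, all but the pallium and subpallium lists.

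No gene of the rest of the pathway was called either. Of 80 tested genes out of 96 on the lists of other surface proteins, cytoplasmic components, planar polarity genes and targets, 0 were called, beside 0.209% of all genes. At an unadjusted p under 0.05, 6 were higher, beside 4.34% of all genes, and 6 lower, beside 6.78%, and their median difference was 0.042. The groups did not overlap in 17 of the 80, beside 12.7% of all genes: 8 were higher in cKO arrays, beside 5.44%, and 9 lower, beside 7.24%. Intu and Invs, which act in planar polarity and at the primary cilium, differed by 0.43 ± 0.079 (adjusted p = 0.157) and 0.63 ± 0.17 (adjusted p = 0.290). The kinase gene Gsk3a and the corepressor gene Tle2 differed by -0.43 ± 0.088 and -0.61 ± 0.12 (adjusted p = 0.201 for both). Shisa2, an antagonist of Frizzled maturation, differed by 0.48 ± 0.11 (adjusted p = 0.258), and Porcn, the enzyme that attaches the lipid to WNT ligands, by -0.37 ± 0.12 (adjusted p = 0.345). Among the target genes, Neurog1 differed by 0.43 ± 0.15 and Id2 by -0.28 ± 0.11. Id2 had no kept value on cKO replicate 2 and control replicate 2. Intu has 3 probes and Id2 has 2, and only the brightest of each is given.

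Promoter sequences are shown for members that lead the sections above and had a window, Fzd5, Fzd7, Rspo1 and Axin2, and for Fzd1 and Dkk1 because their windows hold the motifs searched. Each is the 250 bases before the annotated start, 5′ to 3′ on the strand of the gene, from RefSeq on GRCm38.p6. Capitals mark CTTTGA, a form of the TCF/LEF motif, or TAATCC, the motif of OTX homeodomains, on either strand. The table matched 36 members with 45 windows. It held none for Fzd8, Fzd2, Rspo3 and Wnt7b, so these were not searched. CTTTGA was found in 6 of the 45 windows, 13.3%, beside 13.8% of all 32851 windows, and TAATCC in 4, 8.89%, beside 6.25% of all. No matches of the 2 motifs overlapped.
Fzd5 (GRCm38.p6, chr1:64737751-64738000, minus strand): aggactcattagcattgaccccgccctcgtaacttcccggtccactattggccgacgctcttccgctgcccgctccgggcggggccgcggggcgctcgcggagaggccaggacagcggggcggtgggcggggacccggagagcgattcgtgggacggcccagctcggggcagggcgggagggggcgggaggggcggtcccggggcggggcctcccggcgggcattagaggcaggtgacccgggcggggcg
Fzd7 (GRCm38.p6, chr1:59481897-59482146, plus strand): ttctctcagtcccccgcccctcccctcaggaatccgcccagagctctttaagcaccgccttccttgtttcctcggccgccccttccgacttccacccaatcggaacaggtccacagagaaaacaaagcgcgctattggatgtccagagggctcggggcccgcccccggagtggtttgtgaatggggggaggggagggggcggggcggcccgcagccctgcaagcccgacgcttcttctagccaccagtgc
Rspo1 (GRCm38.p6, chr4:124986180-124986429, plus strand): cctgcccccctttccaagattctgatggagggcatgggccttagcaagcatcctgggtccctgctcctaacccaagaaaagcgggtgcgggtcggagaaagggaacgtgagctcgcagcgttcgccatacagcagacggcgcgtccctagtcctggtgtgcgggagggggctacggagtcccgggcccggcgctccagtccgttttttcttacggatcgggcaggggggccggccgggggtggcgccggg
Axin2 (GRCm38.p6, chr11:108920099-108920348, plus strand): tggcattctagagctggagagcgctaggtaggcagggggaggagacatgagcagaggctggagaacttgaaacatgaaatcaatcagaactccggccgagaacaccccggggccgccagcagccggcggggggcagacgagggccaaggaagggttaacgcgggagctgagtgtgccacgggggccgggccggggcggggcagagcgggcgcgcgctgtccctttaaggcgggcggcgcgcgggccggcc
Fzd1 (GRCm38.p6, chr5:4758217-4758466, minus strand): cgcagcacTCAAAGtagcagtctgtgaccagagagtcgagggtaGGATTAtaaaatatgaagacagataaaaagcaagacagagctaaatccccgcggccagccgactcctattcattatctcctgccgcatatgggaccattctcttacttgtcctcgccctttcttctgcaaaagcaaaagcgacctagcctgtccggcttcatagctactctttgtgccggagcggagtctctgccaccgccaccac
Dkk1 (GRCm38.p6, chr19:30549497-30549746, minus strand): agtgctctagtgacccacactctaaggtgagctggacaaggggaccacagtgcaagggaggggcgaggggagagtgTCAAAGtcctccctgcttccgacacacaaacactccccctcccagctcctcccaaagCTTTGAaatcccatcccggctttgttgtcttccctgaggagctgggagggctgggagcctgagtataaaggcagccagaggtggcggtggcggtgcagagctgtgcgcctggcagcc

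The windows of Fzd5, Fzd7, Rspo1 and Axin2 have no capitals, so neither run of letters is in them. Fzd1 was the only member with both motifs in 1 window (Wnt11 had 1 in each of 2 windows), with the TCF/LEF match starting 242 bases and the OTX match 206 bases before the start, and its signal differed by 0.10 ± 0.084. Dkk1 had TCF/LEF matches 174 and 117 bases before its start and differed by -0.30 ± 0.25.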

How the data were processed

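Messenger RNA was measured on 7 single-colour Agilent whole mouse genome arrays. RNA was amplified with Cy3, per the labels' protocols. Per the file headers, spot intensity came from Agilent Feature Extraction 10.7.3.1, with background subtraction and spatial detrending within the array; the submitters' processing notes name version 10.5. The authors' deposited value table is in log2 units, and the sources used here do not state its normalization. Its column medians run from 7.61 to 7.64, and its column maximum is the same, 18.7647, in all 7 arrays. Within arrays it follows the median spot signal (rank correlation at least 0.99996). It was used as an alternative.

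Control spots and spots marked as outliers (1.24% to 2.51% per array) were left out. The signal was divided by the 75th percentile of the array, set to at least 1 common limit (log2 value -7.49) and taken to log2, and spots of a probe were averaged. No spot was saturated. Of 41174 probes 24844 had 1 symbol, 0 several and 16330 none, from RefSeq accessions of GRCm38.p6. Testing required a brightest probe flagged as well above background on 3 or more of 7 arrays, and 2 or more values per group.

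limma 3.58.1 (R 4.3.3, group as the only term) was fitted to all 13375 tested genes with Benjamini-Hochberg adjustment, and was tested on simulated data. Marker sums used tested genes with a kept value on all 7 arrays. The fit treated the 7 embryos as independent, though cKO replicates 1 and 3 and control replicates 2 and 3 share litter 2. The p-values measure the spread between these 7 embryos and not between litters. The members and lists were chosen with earlier results of these data known. Values in every array were to be printed for members past the threshold, with an unadjusted p under 0.05 or with groups that did not overlap; further genes were added for contrast after their values were seen. The planned normexp alternative used the median in place of the mean spot signal.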

Additional observations from a re-analysis of the deposited data

Results flagged for a closer look

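In 3 of the 45 tested members 1 control array stood apart from the other 3 by Dixon's ratio at its 95% critical value. Fzd6 was -1.72 in control replicate 2, while the other controls lay between -1.17 and -1.12. Ctnnb1 was 4.72 in control replicate 4, against 4.85 to 4.87 in the others. Tcf7l1 was 1.34 in control replicate 1, against 1.62 to 1.64 in the others. Chance alone flags about 1 in 20 such groups.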

How the results depend on the processing

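Group differences were recomputed under 24 alternatives, 7 of which leave out 1 array; 36 members could be fitted in all 24, 8 in 23 and Tcf7l2 in 19. In all 24, 0 members and 0 other pathway genes were called. Of the 45 members 21 kept the sign of their difference in every alternative fitted, among them Fzd5, Fzd8, Fzd7, Fzd2, Rspo1, Rspo3 and Wnt7b. The other 24 did not, among them Notum, Wnt10a, Nkd1, Wif1, Wnt3a, Axin2 and Ctnnb1. The member median was 0.060 and ran from -0.067 to 0.20 when 1 array was left out. The count of members whose groups do not overlap, 4, was 27 within slide 1, 15 within slide 2 and 14 within litter 2, where fewer arrays are compared (61.3%, 43.5% and 38.0% of all genes), and 4 to 11 with 1 array left out (15.9% to 28.5% of all genes, with 28.5% where the count was 11). The group difference of Axin2 was -0.018 within slide 1. Its slide difference kept its sign but was not called with quantile normalization, normexp or the authors' value table (1.03, 0.79 and 0.86, adjusted p = 0.0919, 0.123 and 0.121). That difference, with 13 alternatives, and the counts of members highest in cKO replicate 2, with 6, were chosen after seeing the data; the count of 23 of 39 was 15 in the authors' value table, 38.5% beside 17.4% of all genes, and 16 to 23 in the other 5. Otx2 stayed between 1.28 and 1.62 and was called in 10 of 24. Replicate numbers do not pair the samples (correlations of same-numbered arrays 0.11, -0.53 and 0.027), and the replicate block gave a member median of 0.15 with 0 called. The cause of these shifts was not tested. Over all genes, the 28 calls became 48 with normexp, 43 in the authors' value table, 49 with a variance trend, 11 with no filter and 17 with slide as a block. They became 10 without control replicate 1, 3 without cKO replicate 2, and 0 without control replicate 2, 3 or 4 or cKO replicate 3, within either slide or litter 2, and with litter or the replicate number as a block.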
